A study of Mus musculus with 12 samples.

Results

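Polysome-bound RNA of the uninjured mouse spinal cord was compared with total RNA of the same tissue, gene by gene. The 6 arrays of this comparison, 3 of polysome-bound and 3 of total RNA, were taken by their titles from a series of 12 Affymetrix arrays; the other 6 came from cords with a transection across 80% of their width. All mice were wild-type C57BL/6 females, 10 weeks old, and no other allele or agent was given in the labels. The mice of these 6 arrays had a laminectomy only; the titles call them naive and the source labels sham operated, and they are called sham here. At 9 hours after surgery a piece of cord 2.5 cm long was taken and homogenized. A small part of the lysate gave total RNA, and the bulk was spun through sucrose so that RNA on polysomes could be collected by its sedimentation. Labelled cRNA was made from 5 µg of total RNA and from 3 µg of polysome-bound RNA. The cord is a mixture of neurons, glia, vessels and meninges, so the number of cells of a type and the RNA per cell cannot be told apart. The labels call the replicates biological and do not say how many animals each holds.

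A polysome is an mRNA carried by several ribosomes at the same time, and it sediments deeper in sucrose than free ribonucleoprotein or a lone ribosome. The share of a transcript found there is a common measure of how actively it is translated. Noncoding RNAs, mRNAs held in the nucleus and mRNAs stored in repressed particles are known to be poor in this fraction, while housekeeping mRNAs with simple leaders are usually rich in it. In mammals the mRNAs of ribosomal proteins and elongation factors begin with a 5′ terminal oligopyrimidine (TOP) tract, which lets growth signalling move them on and off polysomes as a group.

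Loading below means the log2 value on the polysome arrays minus that on the total RNA arrays, after each array was centred on its median over the genes tested. A loading of 0 is that of a middling gene, not the absence of ribosomes, and the scale gives relative loading only. The brightest probe set stands for each gene, and SE is the standard error of a loading in the limma fit, from 3 arrays of each fraction. Because the arrays of the fractions differed in shape as well as in level, the loading after quantile normalization of the 6 arrays is printed beside it as the quantile value.

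The arrays of a group agreed closely, with correlations across genes of 0.9971 to 0.9978. The median over all probe sets was 7.76 ± 0.01 on total RNA arrays and 7.25 ± 0.01 on polysome arrays (log2, mean ± SD, n = 3). Probe sets for bacterial genes that the tissue lacks, a measure of background, were lower by 0.38, and spiked hybridization controls by 0.19 (exact permutation p = 0.1 and 0.3, two-sided; 0.1 is the smallest that 3 against 3 allows). Gapdh has control probe sets at both ends of its mRNA, and their 3′ minus 5′ difference was 0.23 ± 0.05 in total and 0.87 ± 0.03 in polysome-bound RNA (n = 3, exact permutation p = 0.1). The same difference was greater on polysome arrays by 0.22 for Actb and 0.34 for Pcx, and smaller for Tfrc, at 0.18 against 0.85. The part of this 3′ difference in the loadings was not tested. For neurons, oligodendrocytes and astrocytes, the defining cells of cord, 14, 8 and 13 markers were tested, of 14, 11 and 14 listed. All of these exceeded every absent control on all arrays of at least 1 fraction, as did 9248 of all 10082 genes tested. Tested genes had already passed a filter on signal, so this count says little about the cells.

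B1 and B2 are short interspersed repeats that lie in many nuclear transcripts and introns, and the array carries control probe sets for them. The B1 probe set read 14.58, 14.52 and 14.54 in total RNA and 11.39, 11.16 and 10.94 in polysome-bound RNA, as deposited log2 values. It was lower on all polysome arrays, by 3.12 relative to the median gene (exact permutation p = 0.1, n = 3). Its values in total RNA lay near the highest value of the table (14.65), as did those of B2, so the sizes of these differences are uncertain. For B2 the deposited means were 14.21 ± 0.01 and 13.39 ± 0.02 (SD, n = 3), a difference of -0.55 relative to the median gene, with the same exact p of 0.1. A second B2 probe set lay well below the top of the range, at 9.36 ± 0.03 and 8.56 ± 0.08 (SD, n = 3). It gave -0.53 relative to the median gene (exact permutation p = 0.1).

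Among 10082 genes tested, limma called 8235 at a Benjamini-Hochberg adjusted p under 0.05 (81.7%), of which 4061 were higher (40.3%) and 4174 lower on polysomes (41.4%). The arrays of the fractions did not overlap for 8341 genes (82.7%). With quantile normalization 7363 genes were called (73.0%), 4164 higher (41.3%) and 3199 lower (31.7%). Altogether 3102 genes were higher in both scalings (30.8%) and 2489 lower in both (24.7%), while 500 were called in opposite directions (4.96%). These shares, and the shares by signal that follow, are the background against which the counts below have to be read. Changes of 1 or more on the log2 scale, that is 2-fold or more, were fewer: 308 genes were higher (3.05%) and 179 lower (1.78%), and 105 (1.04%) and 200 (1.98%) in quantile values.

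Loading as centred here moved with signal. The dimmest decile of genes had a median loading of -0.31 and the brightest decile 0.52, whereas their quantile medians were 0.03 and 0.10. In the dimmest decile 78.1% of genes were called lower and 3.17% higher, and in the brightest decile 10.7% and 80.2%. The brightest decile began at a mean deposited value of 10.58, and the next, from 9.77, had 73.2% called higher. Several lists below were bright. Their median deposited values in total RNA were 11.71 for the respiratory chain, 12.91 for actins, 10.51 for the proteasome and 9.98 for splicing factors. Counts of bright lists have to be read against the shares at their signal. The 320 genes that exceeded the absent controls on no sham array had a median of -0.30 (quantile 0.04). A loading near -0.3 in a dim gene is therefore the value of genes at background. By genomic span, the median was 0.01 in the fifth of genes with the shortest span and -0.09 in the fifth with the longest (quantile 0.10 and -0.02).

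**Figure D1:**
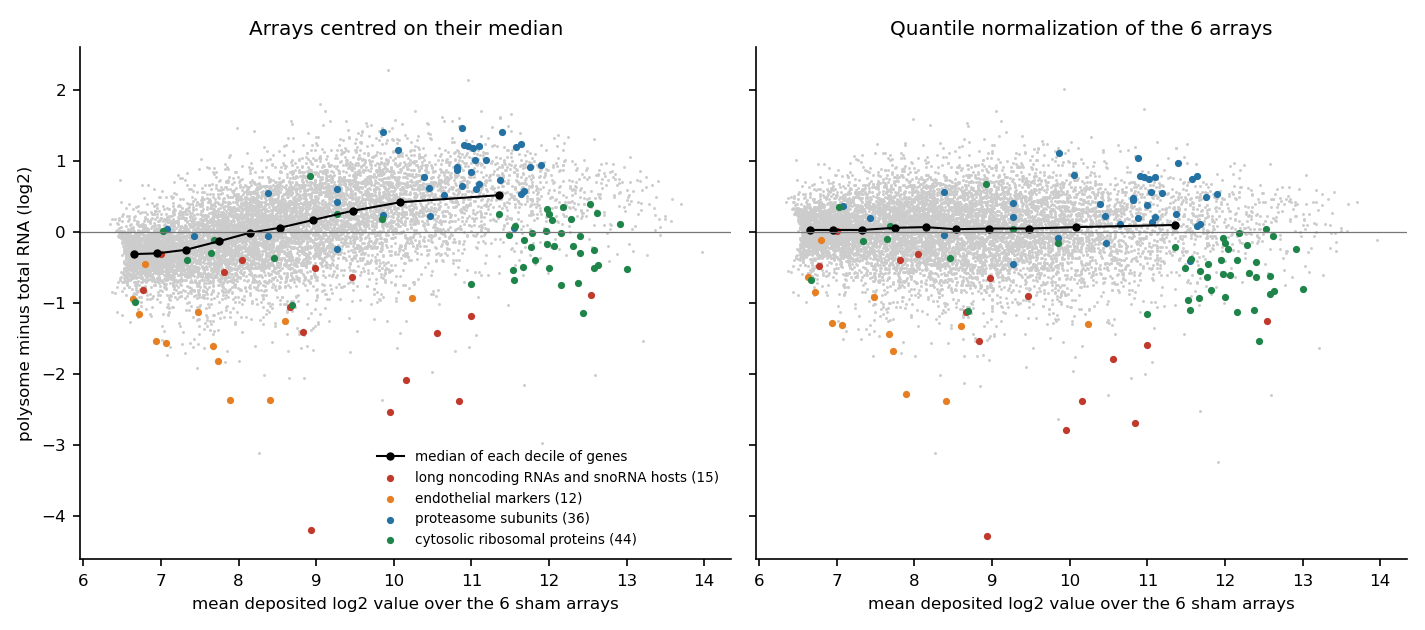
Loading of each of the 10082 genes (grey points, log2, vertical axis) against its mean deposited log2 value over the 6 sham arrays (horizontal axis), with arrays centred on their median (left) and after quantile normalization (right); coloured points are the members of 4 lists and the black line joins the medians of deciles of genes. The black line climbs from -0.31 to 0.52 on the left and stays between 0.03 and 0.10 on the right, and most of the noncoding and endothelial genes lie below it in both.

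Long noncoding RNAs and the hosts of small nucleolar RNAs were low on polysomes. All 15 of the list that were tested, of 35 listed, were called lower and 14 were lower in both scalings, with a median loading of -1.05 (quantile -1.25) against -0.02 (quantile 0.05) over all genes. Xist, the noncoding RNA that coats the inactive X chromosome, read 2.65, 2.74 and 2.75 in total RNA and -1.52, -1.54 and -1.41 on polysomes, as log2 values relative to the array median. The fractions stood far apart, and Xist had the lowest loading among the named genes, -4.20 (SE 0.05, limma adjusted p = 1.8e-13, quantile -4.28), or 18.4-fold lower. Its other probe sets gave -2.63 and -0.87. On polysome arrays the Xist signal lay little above the highest absent controls, which leaves the size of its fall uncertain.

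Neat1, the RNA scaffold of nuclear paraspeckles, read 2.90, 2.82 and 2.98 in total RNA and 0.29, 0.35 and 0.44 on polysomes, a loading of -2.54 (SE 0.05, limma adjusted p = 5.9e-11, quantile -2.79). Malat1, which sits in nuclear speckles, read 2.95, 3.01 and 2.87 against 1.32, 1.27 and 1.98. Its loading was -1.42 (SE 0.14, limma adjusted p = 1.7e-06, quantile -1.79), and the third polysome array was the highest of its group. The groups did not overlap for either RNA.

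Meg3, an imprinted noncoding RNA of neurons, had a loading of -1.18 (SE 0.04, limma adjusted p = 4.2e-10, quantile -1.59), and its imprinted neighbour Rian had -1.05 (SE 0.19, limma adjusted p = 0.00021). Rian varied among polysome arrays, at 0.41, -0.36 and -0.61, all below the total RNA values of 0.91, 0.82 and 0.87. Gas5 carries small nucleolar RNAs in its introns, and its spliced transcript is a TOP RNA with a short reading frame. It read 2.81, 2.92 and 2.88 in total RNA and 0.77, 0.95 and 0.66 on polysomes, a loading of -2.08 (SE 0.07, limma adjusted p = 3.3e-10, quantile -2.38), and its 3 other probe sets gave -2.21 to -1.97. Snhg11, a host gene expressed in neurons, had -2.38 (SE 0.09, limma adjusted p = 9.2e-10, quantile -2.69), and Snhg1 had -0.40 (quantile -0.31).

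The list was drawn up from well-known noncoding RNAs. Of all 70 tested genes that RefSeq types as long noncoding, 52 were called lower and 6 higher, and 30 and 6 in both scalings. Their median loading of -0.36 was near that of genes at background, and the quantile median was -0.06. For the 46 of them that exceeded the absent controls the quantile median was -0.19.

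**Figure D2:**
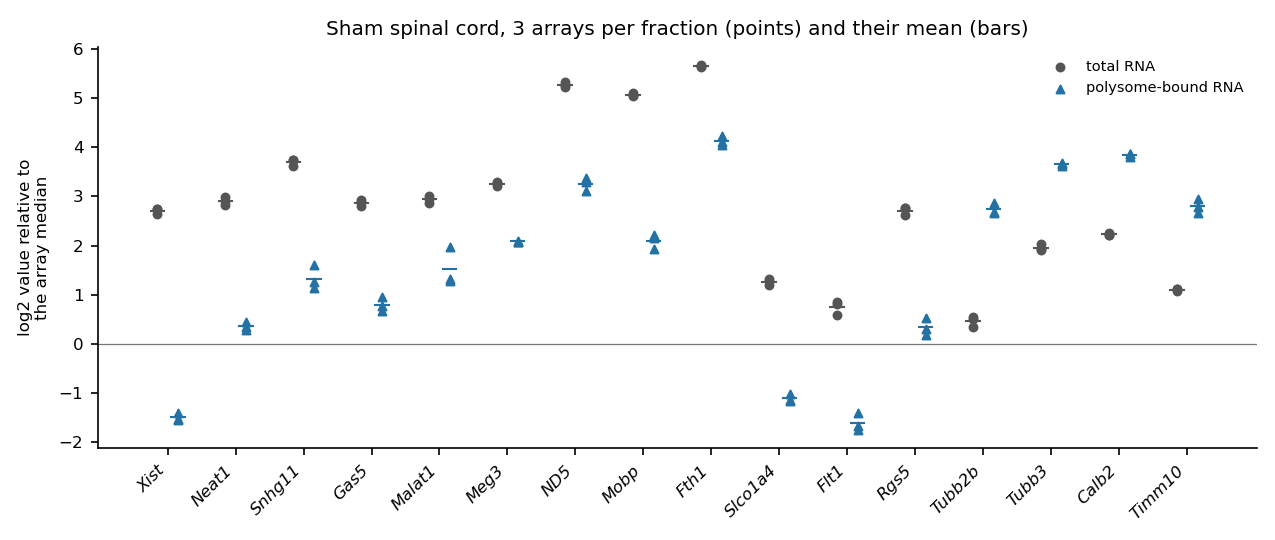
Log2 values relative to the array median (vertical axis) of 16 genes on the 3 total RNA arrays (circles) and the 3 polysome arrays (triangles) of sham cord, with short bars for group means. The fractions do not overlap for any of the 16; Xist falls from about 2.7 to about -1.5, and the last 4 genes, from Tubb2b to Timm10, lie higher on polysomes.

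Some mRNAs keep introns and wait in the nucleus, and a list of 27 tested genes with such detained introns in mouse cells had 17 called lower, all 17 in both scalings, and 7 called higher, 4 in both. Its median was -0.68 (quantile -0.64). Clk1, a kinase that phosphorylates SR splicing proteins, read 2.01, 1.99 and 1.89 in total RNA and 0.34, 0.21 and 0.27 on polysomes. The groups did not overlap, and the loading was -1.69 (SE 0.05, limma adjusted p = 2.6e-10, quantile -1.90). Ccnl2, a cyclin of nuclear speckles, had -1.45 (SE 0.05, limma adjusted p = 4.3e-10, quantile -1.56). At the other end stood Pabpn1, the nuclear poly(A)-binding protein, at 1.33 (quantile 0.93), and Son, a speckle scaffold, at 1.08.

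mRNAs of splicing factors and hnRNPs were mostly high: 45 of 56 tested were called higher and 6 lower, 31 and 6 in both scalings, with a median of 0.47 (quantile 0.16). Snrpb2, a protein of the U2 particle, read 0.74, 0.81 and 0.80 in total RNA and 2.20, 2.11 and 2.01 on polysomes, a loading of 1.32 (SE 0.05, limma adjusted p = 1e-09, quantile 1.03). Hnrnpc, which binds uridine tracts in nascent RNA, had 1.16 (quantile 0.69). Snrnp70, the main protein of the U1 particle, went the other way, with 1.10, 1.13 and 1.21 in total RNA and -0.27, -0.26 and -0.20 on polysomes. Its loading was -1.39 (SE 0.05, limma adjusted p = 4.1e-10, quantile -1.49), and Prpf8, the core of the spliceosome, had -0.85 (quantile -1.18).

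Mitochondria make a few of their proteins on their own ribosomes and import the rest from the cytosol. ND5, a subunit of respiratory complex I encoded in mitochondrial DNA, was the only gene of that genome tested. It read 5.32, 5.23 and 5.27 in total RNA and 3.11, 3.29 and 3.37 on polysomes, so that the fractions were far apart, with a loading of -2.02 (SE 0.06, limma adjusted p = 2.6e-10, quantile -2.30). Nuclear genes of the respiratory chain were on the other side of the median: 68 of 74 tested were called higher and 1 lower, and 50 and 1 in both scalings. Their median was 0.64 (quantile 0.23), and all 33 tested genes of complex I were called higher, 26 of them in both scalings.

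Ndufb3, an accessory subunit of complex I, read 2.43, 2.53 and 2.47 in total RNA and 3.87, 3.99 and 3.82 on polysomes. Its loading was 1.42 (SE 0.05, limma adjusted p = 5.4e-10, quantile 0.98), and that of Ndufs7, an iron-sulfur subunit of the same complex, was 1.37 (SE 0.04, limma adjusted p = 3.2e-10, quantile 0.97). The member called lower was Cox7c, a small subunit of cytochrome oxidase, at -0.91 (limma adjusted p = 5.4e-09). Its probe set was not well above background on any polysome array, so the difference is at least 1.38-fold. A bound of that kind sets the mean in total RNA against the absent controls or the probe's own signal, whichever was higher on each polysome array.

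Mitochondrial ribosomal proteins, all encoded in the nucleus, showed a similar count, with 68 of 74 called higher and 2 lower, and 61 and 2 in both scalings (median 0.63, quantile 0.45). Mrpl41 of the large subunit read 1.76, 1.73 and 1.84 against 3.28, 3.34 and 3.19, a loading of 1.5 (SE 0.05, limma adjusted p = 4e-10, quantile 1.07). The exceptions were Mrpl42 at -0.96 (SE 0.06, limma adjusted p = 1.7e-08, quantile -1.26) and Mrps7 at -0.22. Timm10, a chaperone of the space between the mitochondrial membranes, was among the genes highest on polysomes, at 1.71 (SE 0.06, limma adjusted p = 5.9e-10, quantile 1.34).

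Genes of the cytosolic ribosome were mostly lower on polysomes. Of 44 tested cytosolic ribosomal protein genes, of 81 listed, 24 were called lower and 11 higher, and 22 and 1 in both scalings. The median was -0.18 and the quantile median -0.48, and these genes were bright, with a median deposited value of 12.06. In the small subunit 17 of 22 were called lower and 1 higher (median -0.29, quantile -0.59). In the large subunit 7 of 22 were lower and 10 higher, with a median of 0.07 that lay below 0, at -0.23, in quantile values.

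Rpl37a read 4.63, 4.73 and 4.67 in total RNA and 3.49, 3.68 and 3.44 on polysomes, without overlap. Its loading was -1.14 (SE 0.06, limma adjusted p = 5e-09, quantile -1.53), although its 2 other probe sets gave -0.83 and 0.17. Rps24 had -0.74 (SE 0.04, limma adjusted p = 2e-08, quantile -1.13) and Rps19 had -0.73 (SE 0.06, limma adjusted p = 2.2e-07, quantile -1.15). Rpl41, the shortest ribosomal protein, read 4.37, 4.46 and 4.41 in total RNA and 3.71, 3.87 and 3.49 on polysomes. It had a loading of -0.72 (SE 0.08, limma adjusted p = 2.5e-06, quantile -1.10), and its 3 other probe sets gave -0.86 to -0.64. The highest member was Rpl27a at 0.79 (SE 0.07, limma adjusted p = 3.4e-07, quantile 0.68). Ribosomal protein genes have many processed pseudogenes, and reads of related copies by these probe sets cannot be told apart from the gene itself.

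The TOP tract that marks this class can be read at the annotated transcription start. The following 7 members are printed 5′ to 3′ from the RefSeq promoter table of assembly GRCm38.p6, from 5 bases before the start to the 20th base of the transcript, with the pyrimidine tract in capitals. The first 4 encode ribosomal proteins, with loadings from low to high, and the others are the 3 further genes of the TOP list in which the tract was found.
Rps6 (chr4:86857348-86857372, minus strand): cgggcCTCTTTTTCgtgacgcctcc
Rps10 (chr17:27635225-27635249, minus strand): cgcccCTTCCTTTCCagcctccgcc
Fau (chr19:6057942-6057966, plus strand): cacttCTTCCTCTTTCTTgactcca
Rpl35 (chr2:39005112-39005136, minus strand): ctttcCTCTTTCTCTCgaaccaggc
Eif3f (chr7:108934410-108934434, plus strand): gctctCTCTCTTTCTCggcaagatg
Eif2s3x (chrX:94212632-94212656, minus strand): ttttcCTTTTCTCTCCgagcaagat
Nap1l1 (chr10:111473222-111473246, plus strand): cgggtCTTTTTTagcgccatctgct

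Rps6, a small-subunit protein phosphorylated by growth signalling, had a loading of -0.36 (SE 0.05, limma adjusted p = 1.5e-05, quantile -0.37), and Rps10 had -0.19 (limma adjusted p = 0.0022, quantile -0.57). Fau, which yields small-subunit protein eS30, read 3.18, 3.16 and 3.26 in total RNA and 3.26, 3.4 and 3.18 on polysomes. These overlapped, and the loading of 0.08 was not called (limma adjusted p = 0.19), while the quantile value of -0.38 was called lower. Rpl35 had 0.35 (limma adjusted p = 0.00017), with a quantile value of -0.02. Eif3f, a subunit of the eIF3 complex, had 0.15 (SE 0.05, limma adjusted p = 0.012) and was lower in quantile values, at -0.33. Eif2s3x, the gamma subunit of initiation factor eIF2, had 0.64 (SE 0.05, limma adjusted p = 1.3e-07, quantile 0.20), and its other probe sets ranged from -0.69 to 0.93. Nap1l1, a histone chaperone known for its TOP tract, had 0.82 (SE 0.05, limma adjusted p = 9.5e-09, quantile 0.45).

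The tract was searched as a C at the annotated start followed without a break by C or T to a length of at least 5 bases, on the transcribed strand alone. It was found in 9 of 39 ribosomal protein genes with an entry (23.1%), in 3.13% of tested genes and in 2.51% of all 32851 entries. Where a gene had several entries the one with the longest tract was taken, whereas the last share counts single entries. The median loading was 0.02 for the 9 with the tract and -0.20 for the others (quantile -0.24 and -0.59). Over all tested genes no such gap was seen: the median was 0.00 for the 254 with the tract and -0.01 for the others (quantile 0.04 and 0.05). An annotated start can be off by a few bases, and no match says only that these letters are not at that base.

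Elongation factors and further TOP genes had 12 of 19 called higher and 4 lower, and 8 and 4 in both scalings, with a median of 0.34 that was -0.07 in quantile values. Eef1a1, which brings aminoacyl-tRNA to the ribosome, read 4.87, 4.89 and 4.91 in total RNA and 4.67, 4.62 and 4.6 on polysomes. It had a loading of -0.26 (SE 0.04, limma adjusted p = 3.4e-05, quantile -0.56). Its neuronal and muscle counterpart Eef1a2 read 3.88, 3.89 and 3.89 against 4.65, 4.76 and 4.71, a loading of 0.82 (SE 0.04, limma adjusted p = 3.8e-09, quantile 0.46). Eef2, the translocase, had -0.10 (limma adjusted p = 0.035, quantile -0.50).

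Pabpc1, the cytoplasmic poly(A)-binding protein, had 0.08 and was not called (limma adjusted p = 0.08). It was lower at -0.39 in quantile values, and its other probe set gave -1.08. Initiation factors had 18 of 27 called higher and 2 lower, and 12 and 2 in both scalings (median 0.26, quantile 0.12). Eif2b4, a subunit of the exchange factor of eIF2, read 0.94, 0.95 and 0.93 in total RNA and 2.20, 2.30 and 2.22 on polysomes, a loading of 1.30 (SE 0.04, limma adjusted p = 4e-10, quantile 0.99). Eif3c of the eIF3 complex had 1.04 (quantile 0.57), and Eif4e, the cap-binding protein, was the lowest at -0.22.

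Proteasome subunits were high on polysomes as a group. All 36 listed were tested, 31 were called higher and 1 lower, and 28 and 1 in both scalings, with a median of 0.76 (quantile 0.40). Psmc4, an ATPase of the regulatory cap, read 1.97, 1.58 and 1.92 in total RNA and 3.33, 3.28 and 3.26 on polysomes. Its loading was 1.47 (SE 0.08, limma adjusted p = 1.2e-08, quantile 1.05), though its other probe set gave 0.29. Psmd13, another subunit of the cap, had 1.41, and its other probe set gave 1.43. Psmd4, a ubiquitin receptor, had 1.41 as well (SE 0.04, limma adjusted p = 2.6e-10), with other probe sets from -0.63 to 0.57. The member called lower was Psmd7 at -0.24.

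Of 13 glycolytic genes tested 12 were called higher and none lower, and 7 higher in both scalings (median 0.58, quantile 0.23). These genes were bright, with a median deposited value of 11.83 in total RNA. The brightest decile of all genes had 80.2% called higher and a median of 0.52 (quantile 0.10). After loess the glycolytic median relative to all genes was -0.01. Pfkl, a liver-type phosphofructokinase, had 1.01 (quantile 0.69) and Pgk1, phosphoglycerate kinase, 0.82 (quantile 0.47). Of 8 histone genes 7 were called higher and none lower, 6 of them in both scalings (median 0.66, quantile 0.35), with H1f10, a linker histone, at 1.06. Of 20 Hox genes, which keep the positional identity of the cord, 12 were called higher, all 12 in both scalings, and 4 lower (median 0.59, quantile 0.38). Hoxb5 read 1.06, 0.78 and 0.88 in total RNA and 2.43, 2.34 and 2.23 on polysomes, a loading of 1.43 (SE 0.07, limma adjusted p = 4.5e-09, quantile 1.12), and Hoxd8 was lower, at -0.63.

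**Figure D3:**
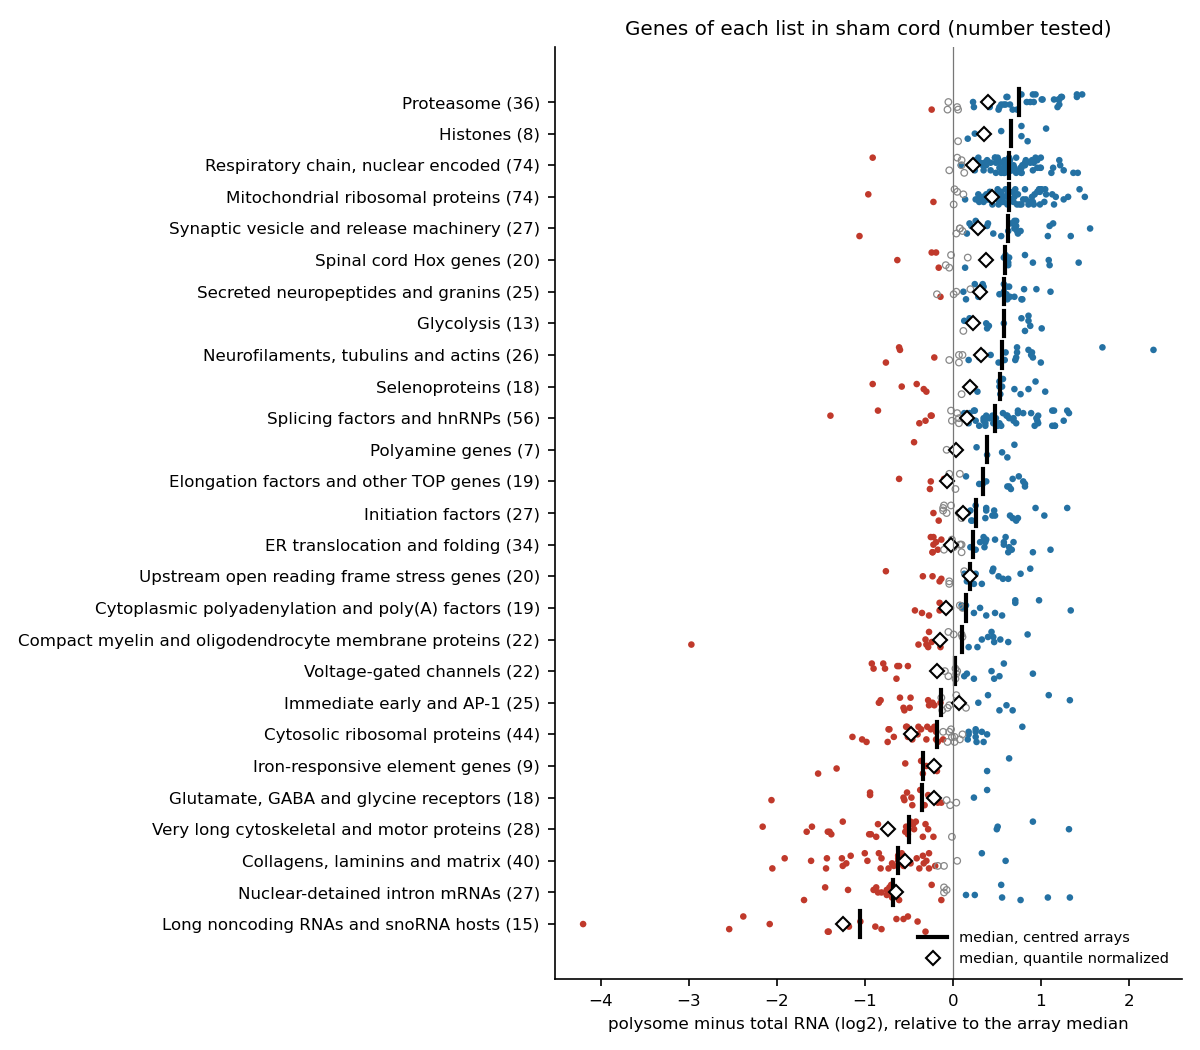
Loading (log2, horizontal axis, arrays centred) of the tested members of each gene list, with their number in brackets; filled blue and red points were called higher and lower by limma, open points were not called, black bars are medians and diamonds the medians in quantile values. The proteasome lies highest by its median of 0.76 and the noncoding RNAs lowest at -1.05; the diamonds lie left of most bars above 0.

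Tubulin mRNAs, which code for the subunits of microtubules, were high on polysomes. Of 11 tubulin genes tested 9 were called higher and none lower, all 9 in both scalings, with a median of 0.73 (quantile 0.49). Tubb2b, a beta-tubulin of neurons and glia, read 0.54, 0.34 and 0.50 in total RNA and 2.87, 2.68 and 2.67 on polysomes. The fractions were well apart, and its loading of 2.28 (SE 0.07, limma adjusted p = 2.6e-10, quantile 2.01), or 4.85-fold, was the largest rise among the named genes. Tubb3, the neuronal beta-tubulin, read 1.91, 1.93 and 2.03 against 3.62, 3.68 and 3.66, a loading of 1.70 (SE 0.05, limma adjusted p = 1.7e-10, quantile 1.27). Tubb4a, the form abundant in oligodendrocytes and neurons, had 1.00 (SE 0.04, limma adjusted p = 1.3e-09, quantile 0.62).

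The 7 actin genes tested from this list, which leaves out Acta2 of the mural cells, were called higher, 5 in both scalings, but the probe sets of Actb disagreed. The brightest gave 0.86 (SE 0.05, limma adjusted p = 3.1e-08, quantile 0.59) and the other -0.72. Among 8 intermediate filament genes 4 were lower and 2 higher, all of these in both scalings, with Nes, the filament of progenitors, at -0.76 and Vim at -0.61. The neurofilament light chain Nefl read 5.10, 5.09 and 5.03 in total RNA and 5.14, 5.17 and 5.13 on polysomes, and its loading of 0.07 was not called (limma adjusted p = 0.076).

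Very long cytoskeletal and motor proteins were mostly low, with 23 of 28 called lower and 4 higher, all of these in both scalings (median -0.50, quantile -0.74). Sptbn1, the beta-spectrin of the membrane skeleton, read 4.41, 4.47 and 4.41 in total RNA and 2.25, 2.15 and 2.39 on polysomes. It had a loading of -2.16 (SE 0.06, limma adjusted p = 1.4e-10, quantile -2.52), and its 3 other probe sets gave -1.05 to -0.85. Ahnak, a giant scaffold protein, had -1.66 (SE 0.11, limma adjusted p = 6.1e-08), Myh9, a nonmuscle myosin, -1.60 (SE 0.06, limma adjusted p = 9.8e-10), and Dst, the linker dystonin, -1.42 (SE 0.05, limma adjusted p = 3.8e-10). Of the axonal motors Kif5a had -1.38 and Kif1a -1.25, and the microtubule protein Map2 had -0.87. Kif5c and Map1b were called higher at 1.32 and 0.91, but their other probe sets gave -1.48 and -1.55. The 3′ minus 5′ difference, polysome minus total arrays, was 0.64 for Gapdh, 0.22 for Actb, 0.34 for Pcx and -0.68 for Tfrc. Its part in the loadings of this list was not tested.

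Synaptic vesicle and release genes were mostly high, with 22 of 27 called higher and 1 lower, and 16 and 1 in both scalings (median 0.63, quantile 0.29). They were bright, with a median deposited value of 10.61 in total RNA. In the brightest decile of all genes 80.2% were called higher (median 0.52, quantile 0.10), so the count is near that of bright genes. Syn2, a synapsin that tethers vesicles, read 1.53, 1.51 and 1.58 in total RNA and 3.27, 3.02 and 3.01 on polysomes, a loading of 1.56 (SE 0.06, limma adjusted p = 1.2e-09, quantile 1.14). Its other probe set gave 0.34. Sv2a, a vesicle glycoprotein, had 1.14 (SE 0.04, limma adjusted p = 7.7e-10, quantile 0.71) and Rab3a, a vesicle GTPase, 1.10 (SE 0.05, limma adjusted p = 1.3e-09, quantile 0.68). Syt1, the calcium sensor of release, was the member called lower, at -0.15, -0.36 and -0.02 in total RNA and -1.18, -1.30 and -1.22 on polysomes. It had a loading of -1.06 (SE 0.07, limma adjusted p = 7.6e-08, quantile -0.87), and its other probe set gave -0.71.

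Secreted neuropeptides and granins had 20 of 25 called higher and 1 lower, and 19 and 0 in both scalings (median 0.58, quantile 0.31). Chga, the granule protein chromogranin A, read 1.98, 1.98 and 1.95 against 3.07, 3.03 and 3.12 on polysomes, a loading of 1.11 (SE 0.04, limma adjusted p = 7.5e-10, quantile 0.68). Penk, the enkephalin precursor of dorsal horn neurons, had 0.78 (SE 0.04, limma adjusted p = 5e-09, quantile 0.36), and Cck, cholecystokinin, 0.95 (quantile 0.70). Pdyn, the dynorphin precursor, had -0.14 and was the member called lower.

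Neurotransmitter receptors had 13 of 18 called lower and 2 higher, and 10 and 0 in both scalings (median -0.35, quantile -0.21). Glra1, the adult glycine receptor subunit of cord and brainstem, read 1.51, 1.62 and 1.54 in total RNA and 0.04, -0.92 and -0.64 on polysomes. The polysome arrays varied but all lay below, with a loading of -2.06 (SE 0.17, limma adjusted p = 3.6e-07, quantile -2.17). Gabra2 and Gabra3, subunits of the GABA-A receptor, each had -0.94 (quantile -0.83 and -0.61). Gria2, an AMPA receptor subunit, had -0.13 (limma adjusted p = 0.037, quantile -0.50), and its other probe set gave -0.91.

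Voltage-gated channels and related genes were split, with 8 of 22 called higher and 8 lower. The median of 0.03 was -0.19 in quantile values, where 5 were higher and 12 lower. Kcnj10, the inward rectifier of glia, read 3.24, 3.21 and 3.23 in total RNA and 2.28, 2.24 and 2.39 on polysomes, a loading of -0.92 (SE 0.05, limma adjusted p = 4.5e-09, quantile -1.35). Kcna2, an axonal potassium channel, had -0.90 (quantile -0.63). Cacnb4, an auxiliary calcium channel subunit, was the highest at 0.91 (SE 0.06, limma adjusted p = 7e-08, quantile 0.48).

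Genes of the myelin sheath did not share a direction. Of 22 tested 10 were called higher and 8 lower, and 5 and 8 in both scalings, and the median of 0.10 was -0.15 in quantile values. Mobp is a small basic protein of compact myelin whose mRNA is known to travel to the sheath. It read 5.04, 5.07 and 5.10 in total RNA and 1.93, 2.22 and 2.16 on polysomes, a loading of -2.97 (SE 0.06, limma adjusted p = 5.9e-11, quantile -3.24), or 7.83-fold lower, and its 2 other probe sets gave -2.14 and -1.71. Mbp, whose mRNA travels likewise, read 5.85, 5.70 and 5.79 against 5.52, 5.51 and 5.47. Its brightest probe set had a loading of -0.28 (SE 0.04, limma adjusted p = 5.4e-05, quantile -0.11) at a deposited mean of 14.24 in total RNA, near the top of the range of the table (14.65), and its 7 other probe sets gave -2.20 to -0.33.

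Mag, a glycoprotein of the innermost myelin wrap, had 0.47 (limma adjusted p = 2.8e-07) with a quantile value of 0.04, and Cnp, an enzyme of the noncompact myelin, had 0.40 (quantile 0.42). Pmp22, the peripheral myelin protein, had -1.03 (SE 0.09, limma adjusted p = 6.9e-07, quantile -1.44). It read 3.4, 3.88 and 3.71 in total RNA and 2.56, 2.66 and 2.68 on polysomes, without overlap.

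Endothelial genes had the lowest median of the marker lists. All 12 tested, of 13 listed, were called lower, 11 of them in both scalings, with a median of -1.40 (quantile -1.31). Slco1a4, an organic anion transporter of the blood-brain barrier, read 1.20, 1.28 and 1.32 in total RNA and -1.16, -1.14 and -1.01 on polysomes. Its loading was -2.37 (SE 0.05, limma adjusted p = 7.3e-11, quantile -2.38). Flt1, a receptor for vascular growth factor, read 0.59, 0.85 and 0.81 against -1.75, -1.67 and -1.41, a loading of -2.36 (SE 0.09, limma adjusted p = 7.2e-10, quantile -2.28). Its polysome values lay close to the absent controls and exceeded them on 2 of 3 arrays, which leaves the size of this fall uncertain. The fractions did not overlap for either gene.

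Abcb1a, the efflux pump of brain endothelium, had -1.81 (SE 0.08, limma adjusted p = 2.1e-09), Vwf, von Willebrand factor, -1.60 (SE 0.08, limma adjusted p = 7e-09), and Cldn5, the tight junction claudin, -1.26 (SE 0.07, limma adjusted p = 7.1e-09). Vwf too was above background on 2 of 3 polysome arrays. Pecam1 was not well above background on any polysome array, so its difference is at least 1.42-fold. Cdh5, the endothelial cadherin, had -0.45 (SE 0.11, limma adjusted p = 0.0019), was above background on 2 total and 1 polysome arrays, and was not called in quantile values (-0.11). Slco1c1, a thyroxine transporter of barrier endothelium and astrocytes, was among the largest falls at -2.02 (SE 0.06, limma adjusted p = 2.6e-10, quantile -2.02). The summed deposited signal of the 12 markers, with the logarithm undone, was 5433 to 6512 on total RNA arrays and 1824 to 2076 on polysome arrays.

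Markers of mural cells and fibroblasts had 8 of 12 called lower and 2 higher, and 7 and 1 in both scalings (median -0.63, quantile -0.69). Rgs5, a pericyte regulator of G-protein signalling, read 2.62, 2.76 and 2.76 in total RNA and 0.19, 0.30 and 0.53 on polysomes, a loading of -2.37 (SE 0.08, limma adjusted p = 3.3e-10, quantile -2.64), and its 3 other probe sets gave -2.76 to -0.77. Pdgfrb, the pericyte receptor, had -1.12 (SE 0.07, limma adjusted p = 4e-08) and Acta2, smooth muscle actin, -1.06 (SE 0.08, limma adjusted p = 1.4e-07). Igfbp2 was higher, at 0.57.

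Collagens, laminins and other matrix genes had 35 of 40 called lower and 2 higher, and 29 and 1 in both scalings (median -0.62, quantile -0.54). Fn1, fibronectin, read 1.11, 1.43 and 1.49 in total RNA and -0.81, -0.91 and -0.39 on polysomes, a loading of -2.05 (SE 0.12, limma adjusted p = 2e-08, quantile -2.12). Col11a1, a fibrillar collagen, had -1.91 (SE 0.07, limma adjusted p = 7.6e-10, quantile -1.74) and Col4a1, of basement membranes, -1.61 (SE 0.07, limma adjusted p = 1.4e-09, quantile -1.57). Col11a1 was above background on 2 of 3 polysome arrays. Acan, the aggrecan of perineuronal nets, was higher at 0.60 (SE 0.05, limma adjusted p = 4.6e-07, quantile 0.70). The mural and fibroblast markers, 8 of 12 lower and 2 higher, themselves include collagen genes, Col1a1 and Col1a2. Their summed signals were 21131 to 25317 in total and 16669 to 18977 in polysome-bound RNA. The part of these cells in the loadings of the matrix list was not tested.

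Of 13 astrocyte markers 9 were called lower and 2 higher, and 9 and 1 in both scalings (median -0.46, quantile -0.77). Slc1a3, a glutamate transporter, read 0.64, 0.43 and 0.61 in total RNA and -0.56, -0.56 and -0.19 on polysomes, a loading of -1.0 (SE 0.09, limma adjusted p = 7.4e-07, quantile -1.0). Fgfr3 had -0.94 (SE 0.07, limma adjusted p = 8.7e-08, quantile -1.23), Gfap, the astrocyte filament, -0.60 (SE 0.05, limma adjusted p = 1.2e-07, quantile -1.03) and Aqp4, the water channel, -0.46 (SE 0.05, limma adjusted p = 4.1e-06, quantile -0.90). Aldoc, a glycolytic enzyme of astrocytes, was called higher at 0.19 with a quantile value of 0.02.

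Neuronal markers had 9 of 14 called higher and 2 lower, and 7 and 2 in both scalings (median 0.50, quantile 0.11). Their median deposited value in total RNA was 11.51. The brightest decile of all genes had 80.2% called higher and a median of 0.52 (quantile 0.10), so these markers did not exceed bright genes as a group. Rbfox3, the nuclear antigen NeuN, read 0.08, 0.01 and -0.04 in total RNA and 1.22, 1.24 and 1.25 on polysomes, a loading of 1.22 (SE 0.05, limma adjusted p = 7.6e-10, quantile 1.11). Elavl4, a neuronal RNA-binding protein, had 1.30 (SE 0.05, limma adjusted p = 1.3e-09, quantile 1.00). The 2 called lower were Syt1 and Map2. Of 8 oligodendrocyte markers 3 were higher and 3 lower (median 0.06, quantile -0.09), and of 10 microglial markers 2 were higher and 6 lower (median -0.27, quantile -0.09), with the receptor P2ry12 lowest at -1.07.

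Among the remaining marker lists, motor neuron genes had 4 of 6 higher and 2 lower, oligodendrocyte precursor genes 3 of 6 higher and 2 lower, ependymal genes 1 of 4 each way, and both Schwann cell genes were lower. Genes of neutrophils and monocytes had 4 of 7 lower and none higher, those of skeletal muscle 6 of 8 lower and 1 higher, those of red cells 2 of 3 lower and 1 higher, and those of lymphocytes 3 of 4 lower and 1 higher. In both scalings all 4 of the neutrophil and monocyte calls held, while of the muscle genes 1 was higher and none lower, and of the red cell and lymphocyte genes 1 was called each way.

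**Figure D4:**
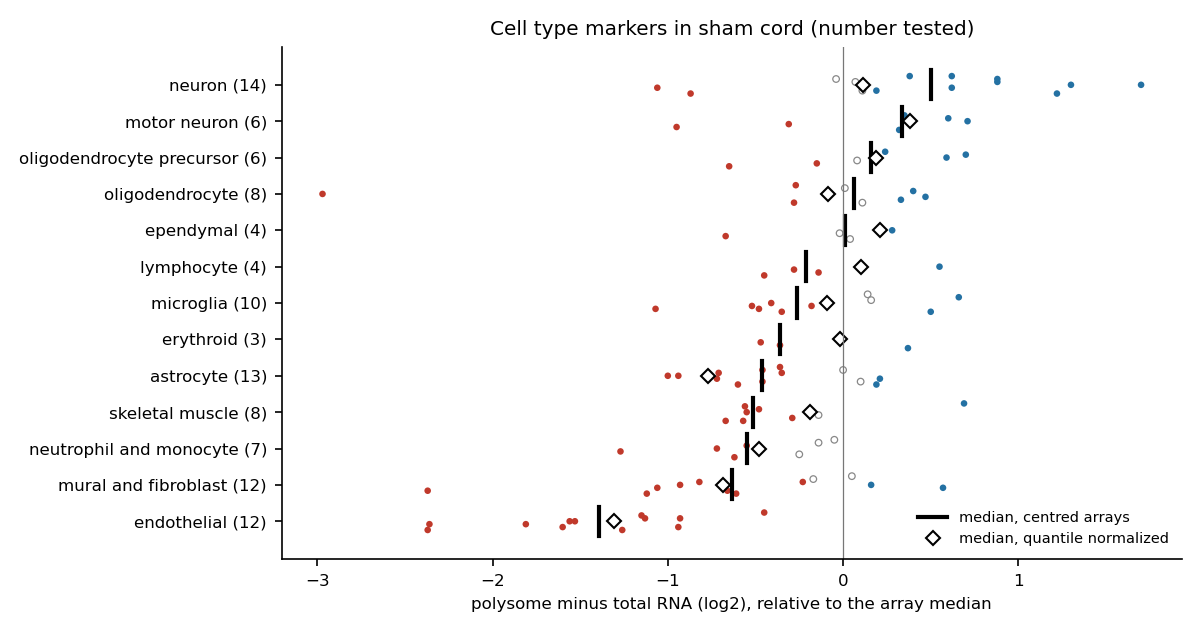
Loading (log2, horizontal axis, arrays centred) of tested markers of each cell type, with their number in brackets; filled blue and red points were called higher and lower by limma, open points were not called, black bars are medians and diamonds the medians in quantile values. All 12 endothelial points lie below 0 with a median of -1.40, and the neuronal median of 0.50 is the highest, with a diamond at 0.11. The brightest decile of all genes had 0.52 and 0.10.

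Several classes under translational control were measured. Of 9 genes with iron-responsive elements, hairpins that bind iron regulatory proteins, 7 were called lower and 2 higher, and 6 and 2 in both scalings (median -0.34, quantile -0.21). Fth1, the ferritin heavy chain with such a hairpin in its leader, read 5.66, 5.63 and 5.67 in total RNA and 4.04, 4.23 and 4.10 on polysomes. The fractions were far apart, at a loading of -1.53 (SE 0.05, limma adjusted p = 3.1e-10, quantile -1.64), and the other probe set gave -1.16. Slc40a1, the iron exporter ferroportin, had -1.32 (SE 0.05, limma adjusted p = 5.9e-10, quantile -1.07), and was above background on 2 of 3 polysome arrays. Tfrc, the transferrin receptor, whose hairpins lie in the trailer, had -0.18 (limma adjusted p = 0.0043, quantile -0.56), and its other probe set gave -0.93.

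Stress genes with upstream reading frames had 12 of 20 called higher and 5 lower, and 9 and 3 in both scalings (median 0.20, quantile 0.19). Atf4, the transcription factor of the integrated stress response, read 1.97, 2.05 and 2.01 in total RNA and 2.16, 2.43 and 2.16 on polysomes. It had a loading of 0.24 (SE 0.07, limma adjusted p = 0.0058), but its quantile value was -0.15 and its other probe sets ranged from -0.28 to 1.29. Of 7 polyamine genes 5 were called higher and 1 lower, and 3 and 1 in both scalings, with a median of 0.39 (quantile 0.04). Odc1, the rate-limiting enzyme ornithine decarboxylase, had 0.62 (SE 0.05, limma adjusted p = 1e-07, quantile 0.24).

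Selenoprotein genes, which recode a stop codon, had 12 of 18 called higher and 5 lower, and 11 and 4 in both scalings (median 0.54, quantile 0.19). Selenos, an endoplasmic reticulum protein, had 1.05 (SE 0.04, limma adjusted p = 1.3e-09, quantile 0.67). Selenow, a small protein of brain and muscle, had -0.58 (SE 0.10, limma adjusted p = 0.00013, quantile -1.0), and its other probe set gave -1.44. Genes of translocation into the endoplasmic reticulum and folding had 18 of 34 higher and 8 lower, but 8 each way in both scalings, with a median of 0.23 that was -0.03 in quantile values. Sec61b, a subunit of the translocation channel, was the highest at 1.11 (quantile 0.80).

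Immediate early genes, which are induced by stimulation, had 7 of 25 called higher and 12 lower, and 7 each way in both scalings (median -0.13, quantile 0.07). Jund read 1.60, 1.35 and 1.48 in total RNA and 2.85, 2.83 and 2.74 on polysomes, a loading of 1.33 (SE 0.06, limma adjusted p = 2.3e-09, quantile 0.92). Egr1 had 1.09 (SE 0.06, limma adjusted p = 5.2e-09, quantile 0.75) and Fos 0.68 (SE 0.06, limma adjusted p = 3.8e-07, quantile 0.52). The lowest were the endothelial factors Klf2 and Klf4, at -0.84 and -0.82.

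The series is titled for Cpeb1, which recognizes polyadenylation elements in the trailers of mRNAs and controls the length of their poly(A) tails. Cpeb1 read 0.32, 0.42 and 0.47 in total RNA and 0.87, 0.72 and 0.76 on polysomes. The groups did not overlap, and its loading was 0.38 (SE 0.06, limma adjusted p = 4.6e-05, quantile 0.27). Cpeb3, its paralogue in neurons, read 0.41, 0.47 and 0.39 against 1.89, 1.70 and 1.71, a loading of 1.34 (SE 0.06, limma adjusted p = 1.3e-09, quantile 1.13), and its other probe sets gave 0.23 to 1.18. Cpeb2 had 0.48 (limma adjusted p = 9.5e-06) but was not called in quantile values (0.13). Cpeb4 had 0.11, was not called (limma adjusted p = 0.22; 0.029 with the replicate number as a block) and was lower in quantile values, at -0.28. Over the 19 tested genes of polyadenylation and poly(A) binding 12 were called higher and 5 lower, and 7 and 4 in both scalings, with a median of 0.15 that was -0.08 in quantile values.

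The 15 largest rises by the naming rule were Tubb2b, Ampd2, Ppig, Timm10, Bcas2, Tubb3, Rbfox1, Hars, Hadhb, Phgdh, Calb2, Rbmxl1, Pank1, Hdac2 and Klhdc2, with loadings from 2.28 down to 1.57. They hold enzymes, splicing proteins and neuronal genes. Ampd2, an AMP deaminase, read 1.66, 1.46 and 1.57 in total RNA and 3.76, 3.66 and 3.68 on polysomes. It had a loading of 2.14 (SE 0.05, limma adjusted p = 1.1e-10, quantile 1.73), and its other probe set gave 0.68. Calb2, the calcium buffer calretinin, read 2.22, 2.22 and 2.26 against 3.87, 3.86 and 3.81, a loading of 1.61 (SE 0.04, limma adjusted p = 1.1e-10, quantile 1.19).

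Rbfox1, a neuronal splicing factor, had 1.66 (SE 0.05, limma adjusted p = 3.3e-10, quantile 1.24), and Ppig, a nuclear cyclophilin, 1.81 (SE 0.09, limma adjusted p = 5.9e-09, quantile 1.70). Hars, histidyl-tRNA synthetase, had 1.62 and Phgdh, the first enzyme of serine synthesis, 1.61 (limma adjusted p = 2.6e-10 and 2.8e-10). Hadhb, of fatty acid oxidation, had 1.62, but its other probe set gave 0.20.

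The 15 largest falls were Xist, Mtm1, Mobp, Neat1, Snhg11, Rgs5, Slco1a4, Flt1, Sptbn1, Gas5, Glra1, Fn1, Slco1c1, ND5 and Erdr1, from -4.20 to -1.97. Most are described above: 4 are noncoding or host RNAs and 4 are listed or known as vessel genes. Mtm1, a lipid phosphatase, read 1.69, 1.25 and 1.57 in total RNA and -1.62, -1.65 and -1.56 on polysomes, a loading of -3.12 (SE 0.09, limma adjusted p = 2.6e-10, quantile -3.12). Its 2 other probe sets gave -2.69 and 0.18 and so disagreed with each other. The polysome values of Mtm1 lay close to the highest absent controls, so the size of its fall is uncertain too. Erdr1, a gene of the pseudoautosomal region, varied on all arrays, with 3.08, 3.63 and 2.74 in total RNA and 1.14, 1.74 and 0.67 on polysomes (SE 0.24, limma adjusted p = 9.3e-06).

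Genes with a second probe set allowed a check within the same arrays. Of 1936 genes called higher by the brightest, the second was called higher for 58.9% and lower for 23.7%. Of 1291 called lower, the second was called lower for 71.5% and higher for 11.1%. Over all genes 40.3% were called higher and 41.4% lower. The second probe set is dimmer than the brightest, and dim genes were mostly called lower in centred values. The part of signal in these shares was not tested. Probe sets of a gene can read different ends or isoforms, and a loading quoted above from the brightest holds for that probe set.

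The 6 arrays of injured cord share no array with the sham comparison and gave the same contrast in other samples. There limma called 6757 genes (67.0%), 4031 higher (40.0%) and 2726 lower (27.0%). Of the 8235 genes called in sham cord 6580 lay on the same side in injured cord (79.9%), against 74.8% of all genes. Altogether 5212 were called the same way and 501 the opposite way. All 487 genes that differed 2-fold or more in sham cord lay on the same side, and 484 were called, 308 of 308 higher and 176 of 179 lower. Across genes, which are not independent replicates, loading in sham and in injured cord correlated at 0.82 (Pearson, 10082 genes; 0.84 in quantile values), over points that share probes and tissue.

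Loading itself differed between injured and sham cord for 5029 genes (49.9%) in the limma interaction over all 12 arrays. Xist had -3.97 in injured cord (difference 0.23, limma adjusted p = 0.059) and Mobp -2.93 (0.04, limma adjusted p = 0.81). Tubb2b had 2.31 (difference 0.03, limma adjusted p = 0.8), and Fth1 had -1.68 (-0.14, limma adjusted p = 0.17). For these 4 no difference was called. ND5 was lower still after injury, at -3.4, a difference of -1.38 (limma adjusted p = 1.3e-05). Gfap and Aqp4, -0.60 and -0.46 in sham cord, had -1.53 and -1.37 (differences -0.93 and -0.91, limma adjusted p = 2.8e-06 and 2.2e-06). The 3′ minus 5′ difference of Gapdh between fractions was 0.64 in sham and 1.43 in injured cord, and that of Actb 0.22 and 1.46, whereas that of Pcx was 0.34 and 0.02 and that of Tfrc -0.68 and -0.51. The array weights of the injured polysome arrays were 0.21, 0.54 and 0.65 against 0.94 to 2.14 for the others. The part of these measures in the differences was not tested.

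**Figure D5:**
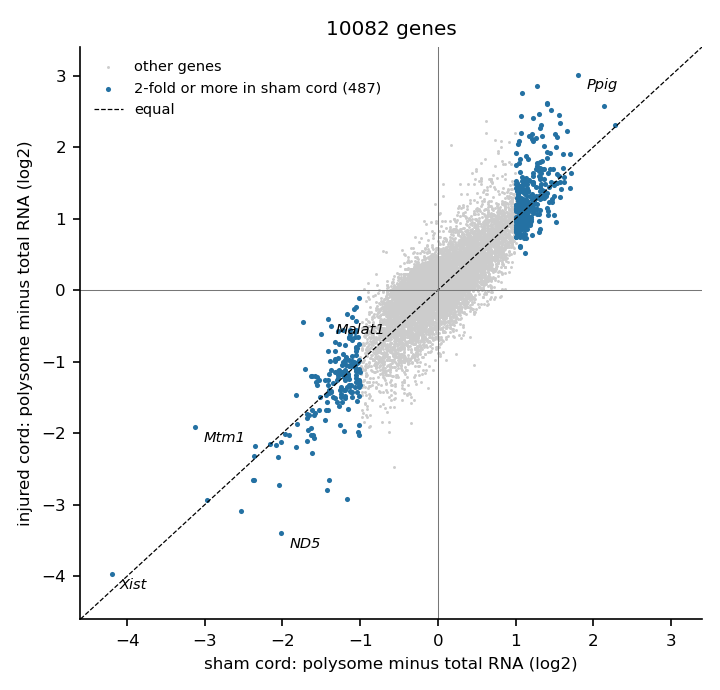
Loading in injured cord (vertical axis) against loading in sham cord (horizontal axis), both log2 with arrays centred, for the 10082 genes; blue points are the 487 genes that were called and differed 2-fold or more in sham cord, and the dashed line marks equal loading. All blue points lie in the lower left or upper right quadrant, ND5 lies below the line and Ppig, Mtm1 and Malat1 above it.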

How the data were processed

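RNA of the spinal cord was measured on 12 Affymetrix arrays, of which the 6 of sham cord enter the main comparison. The values are log2 values that the authors summarised to 1 per probe set and array before they were deposited; how they corrected background and normalized is not given in the sources used here, and the log2 scale was inferred, since all values lay between 5.26 and 14.65. The values were used as deposited and then centred or quantile normalized as stated. Of 22690 probe sets 20380 named 1 gene in the array's annotation table, 691 several and 1619 none, among them 64 controls; 20351 were found by gene ID in RefSeq (GRCm38.p6). A probe set was kept where at least 3 of the 6 arrays had it over their 25th percentile (16046), and the brightest per gene left 10082 genes, 3876 of them with 2 or more kept probe sets. A gene is above background where it exceeds every absent bacterial control of the array. A gene of a list that was not tested had no kept probe set naming it alone.

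limma 3.58.1 (statmod 1.5.0, R 4.3.3) fitted the 2 group means with an intensity trend, 4 residual and 11.6 moderated degrees of freedom, two-sided, with Benjamini-Hochberg adjustment over all genes at 0.05. Array-wide values were compared by exact permutation tests. The injured arrays were fitted alike, and the change of loading as an interaction over 12 arrays. No test of a list was made. On simulated data with 10082 genes, 50 genes were changed at each log2 size of 0.25, 0.5, 1 and 2. The sham comparison recovered 46%, 94%, 98% and 100% of these, with 6.11% false calls. Far more genes were called in the real data, so these rates may not hold there. Precision is limited by 3 arrays a group. The limma p-values set the difference between fractions against the spread among these arrays, moderated across genes. The spread between animals is not known from them.

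Equal replicate numbers deviated together: residuals of total and polysome arrays correlated at 0.228, 0.178 and 0.172 for equal numbers and at -0.157 to -0.038 otherwise. The extraction notes in the labels describe both fractions as coming from the same lysate, without stating that equal numbers mark it. The main fit and the exact permutation tests did not use the numbers as pairs. A replicate block was fitted as an alternative.

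Members, gene lists and tests were chosen with earlier results of these data known. Named were the 15 largest rises and falls among called genes without overlap, called alike after quantile normalization and above background on all arrays of the brighter group, skipping clone and predicted names; list members with the lowest adjusted p or extreme values; and a fixed set of genes, where tested. Other list members named were chosen after their values were seen: Acta2, Ahnak, Aldoc, Aqp4, Cldn5, Eef2, Eif2s3x, Eif3f, Fau, Gria2, Kif1a, Kif5a, Klf4, Map1b, Map2, Mrps7, Nefl, Pdyn, Pecam1, Prpf8, Rian, Rpl35, Rps10, Rps19, Rps6, Selenow, Snhg1, Son and Vwf. Protein length was not analysed here. Alternatives were other scalings, filters, choices of probe set, a minimum change of 0.5, no trend, array weights, blocks and leaving out each array; restricting genes to those above background was added after seeing the data. Figures were drawn with matplotlib 3.10.9 in Python 3.11.15.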

Additional observations from a re-analysis of the deposited data

Results flagged for a closer look

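Of the 45 genes named as the largest changes or by the fixed set, 18 had a loading in injured cord that differed from sham cord in the limma interaction over all 12 arrays; values are injured minus sham on the log2 scale. Loading was greater after injury for Ppig (1.20), Mtm1 (1.20), Malat1 (1.01), Cpeb3 (0.81), Actb (0.77), Pank1 (0.77), Rbfox1 (0.58), Pabpc1 (0.47), Ampd2 (0.45), Meg3 (0.25) and Mbp (0.23). It was smaller for ND5 (-1.38), Fn1 (-0.67), Neat1 (-0.56), Cpeb1 (-0.35), Bcas2 (-0.28), Rgs5 (-0.28) and Hdac2 (-0.27). Cpeb1 was near 0 in injured cord, at 0.03, against 0.38 in sham cord. Malat1 kept its side, at -0.41 against -1.42. The interaction called 49.9% of all genes, and members of lists such as Gfap and Aqp4 are given in the report. The 3′ minus 5′ difference between fractions was 0.64 in sham and 1.43 in injured cord for Gapdh, 0.22 and 1.46 for Actb, 0.34 and 0.02 for Pcx and -0.68 and -0.51 for Tfrc; its part was not tested.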

How the results depend on the processing

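In the main setting 8235 of 10082 genes were called. With each probe set counted on its own, 12955 of 16046 probe sets were called (6595 higher, 6360 lower). A minimum log2 change of 0.5 left 1951 of the 10082 genes (1281 higher, 670 lower). As deposited, without centring, 2444 were higher and 6164 lower. Other scalings, filters, fits and probe set choices gave 5924 to 9410. Leaving out each array gave 7926 to 8101 calls, 3900 to 4012 of them higher and 3988 to 4089 lower. With the replicate block as a fixed term 8401 genes were called, 8220 of them as before, and 8350 as a random term (correlation 0.117); the fixed block lost 15 calls, gained 181 and changed no call of a gene named in the report but that of Cpeb4, which passed at an adjusted p of 0.029. The gap in loading between the brightest and dimmest decile, 0.83, became 0.07 after quantile normalization. Of 938 values of 45 genes 903 kept their call, 14 lost it, 4 gained it and 17 reversed. As deposited, after quantile normalization of 6 and of 12 arrays and after loess, Cpeb4 was -0.15, -0.28, -0.28 and -0.31, Atf4 -0.03, -0.15, -0.16 and -0.19, and Pabpc1 -0.18, -0.39, -0.39 and -0.39. With a filter at the array median Cpeb4 was -0.02 and Pabpc1 -0.05; Pabpc1 was -0.42 as the mean of its probe sets, and without probe sets that may read several transcripts Pabpc1 was -1.04 and Actb -0.69. Of 40 lists 24 had a median above that of all genes (17 to 24 under the alternatives). Medians relative to all genes that reversed after quantile normalization of 6 and 12 arrays and after loess were -0.11, -0.11 and -0.22 for elongation and TOP genes, -0.20, -0.21 and -0.33 for myelin, -0.23, -0.24 and -0.22 for voltage-gated channels (-0.01 without total sham replicate 2), -0.07, -0.07 and -0.08 for endoplasmic reticulum genes, 0.02, 0.02 and 0.04 for immediate early genes, -0.13, -0.13 and -0.11 for poly(A) factors, -0.13, -0.15 and -0.36 for oligodendrocyte and 0.05, 0.06 and 0.06 for lymphocyte markers. Polyamine genes reversed to -0.01 after quantile normalization of 6 arrays and -0.15 after loess, and glycolysis (-0.01) and neuronal markers (-0.07) after loess. Over genes above background, ependymal markers were -0.03 and erythroid 0.34. The causes were not tested. Signal near the absent controls limits dim genes, whose centred loading lies near -0.3.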
